A study of Mus musculus with 7 samples.

Results

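Of the 7 arrays in the series, 3 carried a strong signal for Lyve1, the hyaluronan receptor that marks liver sinusoidal and lymphatic endothelium, and 4 did not. The members of each side were chosen by the measured level of the brightest Lyve1 probe set alone. TFIIA nc/nc 1, TFIIA nc/nc 2 and wild-type 1 lay above a log2 intensity of 6 and are called the high-Lyve1 arrays. TFIIA nc/nc 3 and wild-type 2, 3 and 4 lay below it and are called the low-Lyve1 arrays. Each array measured RNA of haematopoietic stem cells from mouse fetal liver at embryonic day 14.5, sorted in a double pass on Sca-1+, c-Kit+ and CD150+ among Lineage- cells, so the sort was aimed at blood cells on both sides. The TFIIA nc/nc embryos carried on both alleles a form of TFIIAα-β, the large subunit of the general transcription factor TFIIA encoded by Gtf2a1, that its protease cannot cut, and both genotypes came from crosses of nc/+ parents. The high-Lyve1 sorts were made from 2, 2 and 1 embryos and the low-Lyve1 sorts from 4, 1, 4 and 3, with littermates of one genotype combined wherever there was more than 1. Both genotypes stand on both sides, but unequally, with 2 TFIIA nc/nc and 1 wild-type array high against 1 and 3 low. The lineage antibodies named in the labels bind T, B, erythroid and granulocyte antigens, and none of them is a standard antibody against endothelium.

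The sinusoids of the fetal liver are lined by a discontinuous, highly endocytic endothelium that clears hyaluronan, modified proteins and lipoproteins from the blood through scavenger receptors such as Stab1, Stab2 and Mrc1. At mid-gestation the liver is the main site of blood formation, and stem cells lie among these vessels, hepatoblasts, stellate cells and macrophages. Endothelium and blood stem cells arise from related precursors and share several transcription factors and surface proteins, so a gene of the vessel wall is not always absent from a stem cell.

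The arrays were sorted on a measured value, so every gene compared between high-Lyve1 and low-Lyve1 arrays is described with no test. Differences are on the log2 scale, high minus low. A gene was called separated upward where its lowest high-Lyve1 array lay above its highest low-Lyve1 array, separated downward in the opposite case, and the distance between those arrays is called the gap. Array medians over all probe sets were 3.70 to 3.83, and levels near or under them may hold no transcript, which makes the differences of dim genes too small. In a sorted population measured in bulk, fewer cells of a type and less RNA per cell cannot be told apart.

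Lyve1 was far brighter in the high-Lyve1 arrays, where its log2 intensity was 9.60 in TFIIA nc/nc 1, 9.83 in TFIIA nc/nc 2 and 9.73 in wild-type 1. It was 3.34 in TFIIA nc/nc 3 and 2.91, 3.65 and 2.78 in wild-type 2, 3 and 4. The array just inside the threshold thus read 9.60 and the array just outside it 3.65, with no array between. A second Lyve1 probe set, not used to sort the arrays, read 7.91, 8.19 and 8.18 on the high side and 2.26 to 3.35 on the low side. On both probe sets every low-side value lay under the array medians.

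The other marker genes gave the same split of the arrays, with a wide gap and with differing orders within a side. Oit3, a secreted liver protein made by sinusoidal endothelium, read 7.25, 8.15 and 6.96 in TFIIA nc/nc 1, TFIIA nc/nc 2 and wild-type 1, against 2.43 in TFIIA nc/nc 3 and 2.40, 2.91 and 2.10 in wild-type 2, 3 and 4. Gpr182, an endothelial scavenging chemokine receptor, read 6.67, 6.77 and 6.65 against 2.95, 3.27, 3.26 and 3.01 in the same order. Each of the low-side values lay under the array medians, and the high-side values of Gpr182 were nearly level.

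Bmp2, the ligand through which sinusoidal endothelium instructs hepatocytes to make hepcidin, read 6.76, 7.39 and 7.26 against 2.00, 1.96, 1.97 and 2.21. Fabp4, a fatty acid carrier of capillary endothelium, read 7.69, 8.08 and 8.51 against 2.64, 2.70, 2.85 and 1.95. Ehd3, an endocytic recycling protein, read 7.25, 8.13 and 7.94 against 4.20, 3.86, 3.60 and 3.99. All 3 were lowest on the high side in TFIIA nc/nc 1, and no low-Lyve1 array came near the high side.

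Mest, an imprinted gene of mesoderm and growing embryonic tissue, was separated as widely, at 8.98, 9.52 and 8.97 against 3.42, 3.34, 4.00 and 3.60. Alb, the serum albumin gene of hepatocytes and their precursors, read 6.62, 7.44 and 6.12 against 2.28, 2.74, 1.84 and 2.52. Alb is not an endothelial gene, yet it separated the sides by a gap of 3.37 and was under the array medians in all 4 low-Lyve1 arrays. Sorting the arrays by Alb, or by the mean of the pan-endothelial list, in place of Lyve1 gave the same 3 high and 4 low arrays.

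**Figure D1:**
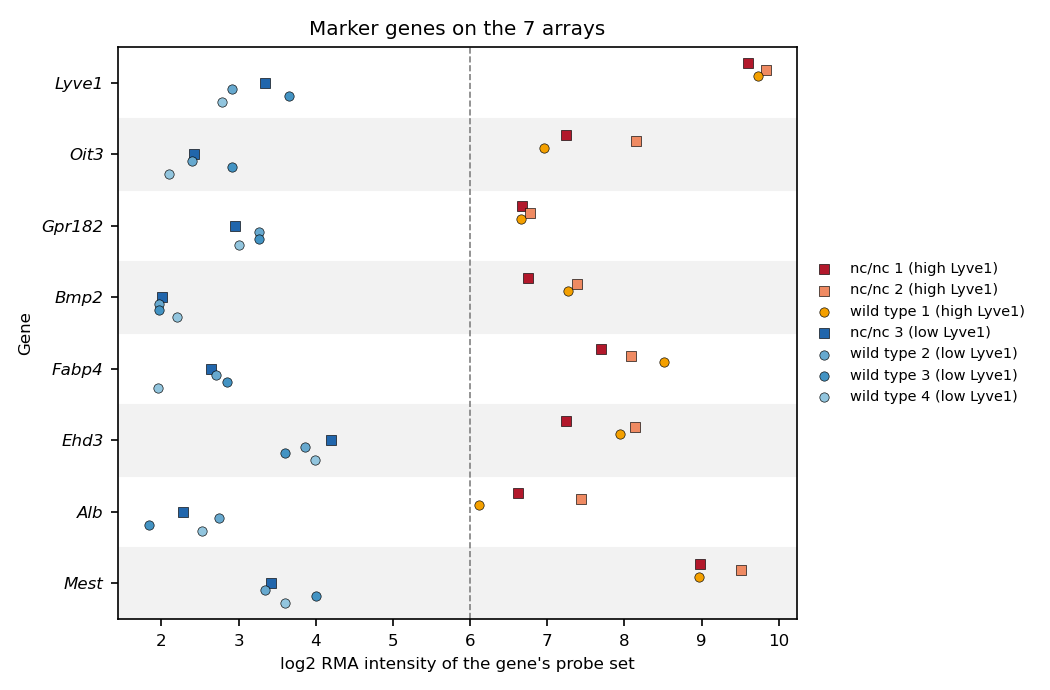
Log2 intensity of the 8 marker genes on each of the 7 arrays, 1 probe set per gene, with points for single arrays. Squares are TFIIA nc/nc and circles wild type. Colours mark arrays, with red to orange for the high-Lyve1 and blue for the low-Lyve1 side. For every gene the 3 high-Lyve1 arrays lie above the 4 low-Lyve1 arrays, with Lyve1 at 9.60 to 9.83 against 2.78 to 3.65 and Alb at 6.12 to 7.44 against 1.84 to 2.74.

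Set against all 12393 genes measured, the contrast ran almost entirely one way in size. A gap of at least 1 upward was found for 110 genes (0.888% of genes) and downward for 0 (0% of genes). At a gap of at least 2 the counts were 46 (0.371%) and 0 (0%), and at a gap of at least 0.5 they were 187 (1.51%) and 7 (0.0565%). With any gap above 0 they were nearly equal, at 688 upward (5.55%) and 604 downward (4.87%), so the sides differed in the size of the gaps rather than in their number. Without wild-type 3 the downward count at a gap of at least 1 was 1. The median difference over all genes was -0.0026.

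**Figure D2:**
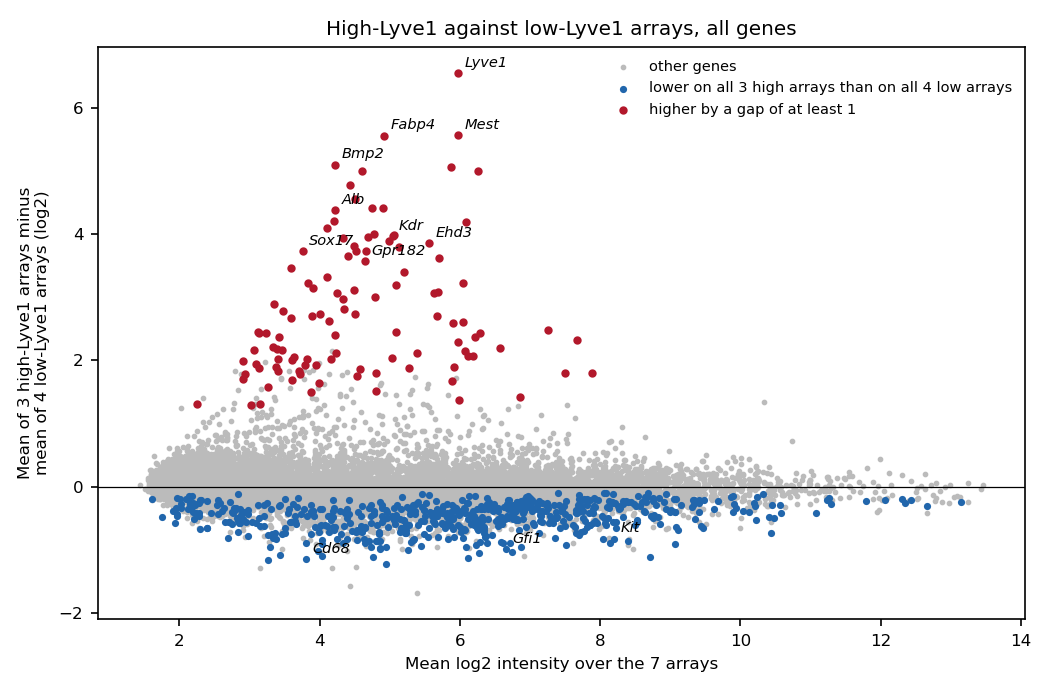
Difference between the high-Lyve1 and low-Lyve1 arrays (log2, vertical) against mean level over all 7 arrays (log2 intensity, horizontal), with a point for each gene. Genes with an upward gap of at least 1 form a tail that reaches 6.55 at Lyve1, whereas no gene lower in the high-Lyve1 arrays has a gap of 1.

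The 110 genes with an upward gap of at least 1 differed by 1.29 to 6.55, with a median of 2.47. In 74 of them the mean of the low-Lyve1 arrays lay under the lowest array median, so most of these transcripts were near the dim end of the array in the low-Lyve1 sorts. Of the 110, 34 belong to a cell type or pathway list used here, 24 of these to an endothelial list, and 76 to none. A further 99 probe sets name 64 of the 110 genes: of the 27 that reached log2 5 on any array, 26 were separated upward as well, and the exception was a second probe set of Col4a1, whose ranges overlapped. Of the 72 dimmer probe sets, 28 were separated upward.

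Among genes of sinusoidal endothelium, 14 of 18 measured were separated upward (77.8%, against 5.55% of all genes) and none downward. Of these, 10 had a gap of at least 1, and the median difference of the list was 3.61. The list holds Lyve1, which set the sides, and without it the counts were 13 of 17 and 9, with a median of 3.58. Mrc1, the mannose receptor, read 8.62, 8.66 and 9.03 in TFIIA nc/nc 1, TFIIA nc/nc 2 and wild-type 1 and 4.45, 4.01, 3.20 and 3.19 in TFIIA nc/nc 3 and wild-type 2, 3 and 4. Stab2, the hyaluronan-clearing scavenger receptor, read 6.67, 7.65 and 6.99 against 3.03, 2.23, 2.68 and 2.27. Its relative Stab1 read 6.77, 8.24 and 6.90 against 3.38 to 3.61. Each of these scavenger receptors was bright on one side and near or under the array medians on the other, and Stab1 and Stab2 were both brightest in TFIIA nc/nc 2. Flt4, the VEGF-C receptor of lymphatic and sinusoidal vessels, differed by 3.65, whereas Clec4g, a sinusoidal lectin, and F8, the gene of coagulation factor VIII, were separated by gaps just under 1, at 0.99 and 0.88. The 4 members that overlapped were the Fc receptor gene Fcgr2b, at 5.61 to 5.92 against 4.85 to 5.70, and the transcription factor genes Gata4, Maf and Tfec, whose differences lay between -0.09 and 0.38.

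The promoters of the sinusoidal genes and of the hepatocyte genes with the widest gaps that the RefSeq table holds are printed here because transcripts of both groups were bright in the same 3 arrays although different transcription factors are known to drive them. They span 250 bases before to 50 after the gene start in RefSeq for GRCm38.p6, each in the direction of its gene, at chr2:14229164-14229463 on the plus strand for Mrc1, chr10:87007893-87008192 on the minus strand for Stab2, chr5:90460620-90460919 on the plus strand for Alb and chr5:90490464-90490763 on the plus strand for Afp. Capitals mark matches to the ETS core AGGAAG, bound by endothelial and blood ETS factors, which reads CTTCCT where it lies on the other strand, and to the HNF1 motif GTTAAT of hepatocyte promoters.
Mrc1: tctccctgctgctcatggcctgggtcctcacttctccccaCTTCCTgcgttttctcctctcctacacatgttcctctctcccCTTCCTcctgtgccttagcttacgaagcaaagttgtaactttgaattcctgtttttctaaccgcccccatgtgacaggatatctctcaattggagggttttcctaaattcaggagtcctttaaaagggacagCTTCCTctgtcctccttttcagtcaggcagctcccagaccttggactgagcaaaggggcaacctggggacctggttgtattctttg
Stab2: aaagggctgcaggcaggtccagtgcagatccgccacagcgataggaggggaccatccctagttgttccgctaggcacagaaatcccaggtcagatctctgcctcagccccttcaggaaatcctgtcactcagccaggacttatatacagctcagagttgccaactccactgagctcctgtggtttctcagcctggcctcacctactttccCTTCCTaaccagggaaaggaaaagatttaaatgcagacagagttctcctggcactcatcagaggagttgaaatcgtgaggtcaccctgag
Alb: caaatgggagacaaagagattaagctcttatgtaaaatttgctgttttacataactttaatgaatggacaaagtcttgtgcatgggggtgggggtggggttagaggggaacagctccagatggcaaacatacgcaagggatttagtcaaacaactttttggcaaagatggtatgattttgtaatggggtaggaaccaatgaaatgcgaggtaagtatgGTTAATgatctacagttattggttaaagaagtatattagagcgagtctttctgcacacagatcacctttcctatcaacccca
Afp: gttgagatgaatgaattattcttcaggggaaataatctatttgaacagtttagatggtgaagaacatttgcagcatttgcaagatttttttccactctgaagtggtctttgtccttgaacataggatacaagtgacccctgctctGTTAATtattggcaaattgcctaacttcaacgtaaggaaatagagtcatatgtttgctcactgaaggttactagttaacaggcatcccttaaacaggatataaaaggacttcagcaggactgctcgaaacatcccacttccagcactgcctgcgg

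Both strands were searched for these motifs and for the GATA core AGATAA, and no 2 marked matches overlap. The ETS core lay at -210, -168 and -36 from the start in Mrc1 and at -40 in Stab2, and the HNF1 motif at -32 in Alb and -105 in Afp. Of the 80 genes among the 110 that have a promoter in the table, 36.2% held the ETS core, against 33.7% of the 9882 promoters of measured genes and 35.1% of all 27025 promoters. The HNF1 motif was in 11.2% of the 80, 5% of those of measured genes and 7.2% of all. The GATA core was in 6.25%, 7.83% and 11.4%. Only letters were matched, and binding was not measured.

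Genes made by endothelium of any bed were separated as broadly. Of 27 measured pan-endothelial genes, 20 were separated upward (74.1%, against 5.55% of all genes) and none downward. A gap of at least 1 was found for 14, and the median difference of the list was 1.70. Kdr, the main VEGF receptor, read 6.66, 7.87 and 7.39 on the high side and 3.26, 3.04, 3.89 and 3.20 on the low side. Cdh5, the cadherin of endothelial junctions, read 6.58, 6.83 and 6.53 against 3.31, 2.94, 2.55 and 2.89, and the tight-junction gene Cldn5 read 7.06, 7.02 and 7.54 against 3.06, 3.62, 3.80 and 2.81. Both junction genes kept the sides well apart.

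Aplnr, the apelin receptor of venous and growing vessels, had the widest gap of the pan-endothelial list, 4.33, at 6.94 to 7.56 against 2.13 to 2.61. The second probe sets of Aplnr, Cdh5 and the sinusoidal gene Flt4 overlapped between the sides. None of them was above log2 3.42 on any array, and the separation of each gene rests on a single probe set. Nrp1, the VEGF and semaphorin co-receptor, read 7.41, 7.67 and 6.91 against 3.16 to 3.66. The list was not uniform: Emcn, an endothelial sialomucin, read 6.55, 6.65 and 6.47 on the high side and 6.12 to 7.33 on the low side, and Adgrl4, an adhesion receptor, 9.11 to 9.23 against 9.10 to 9.64. These genes were thus as bright in the low-Lyve1 sorts, where Cdh5 and Kdr were dim.

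Vascular genes that blood stem cells also make split accordingly. Of 16, 6 were separated upward (37.5%, against 5.55% of all genes) and 1 downward (6.25%, against 4.87%). Their median difference was 0.018, which turned to -0.039 when the arrays were centred on their medians. Sox17, a transcription factor of arterial endothelium and of fetal stem cells, was the exception in size, at 5.54, 6.01 and 6.13 against 1.94, 2.58, 2.21 and 1.92. Tek, the angiopoietin receptor, was bright everywhere and modestly higher on the high side, at 7.47 to 7.80 against 6.44 to 6.86. Icam2, an adhesion molecule of endothelium and blood cells, read 8.47 to 8.63 against 7.58 to 8.02. Procr, the protein C receptor used to enrich fetal stem cells, ran the other way, at 5.99, 6.26 and 6.39 against 6.58, 7.04, 7.72 and 7.06.

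Lipid uptake and endocytosis genes were separated upward in 5 of 17 (29.4%, against 5.55% of all genes) and downward in 0 (against 4.87%). The fatty acid translocase Cd36 read 6.11, 6.42 and 7.29 against 2.16 to 2.56, and Dab2, a clathrin adaptor, 6.56, 7.07 and 6.38 against 2.52 to 3.39. These were the 2 with gaps of at least 1, and the median difference of the list, which also holds the general endocytic machinery, was 0.17. In BMP, Wnt and VEGF signalling 7 of 21 genes were separated upward (33.3%) and 0 downward, against the same shares of all genes. Id3, a BMP target, read 6.92, 7.11 and 6.98 against 5.40, 5.17, 4.95 and 4.93. The ligand Bmp6 and the receptor Notch4 were separated at low levels, with mean differences of 1.23 and 1.72 and gaps of 0.70 and 0.87.

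Further genes among the 30 with the widest gaps lay outside the endothelial lists and had varied roles. Sparc, a matrix glycoprotein of endothelium and stroma, read 8.64, 9.44 and 9.28 in TFIIA nc/nc 1, TFIIA nc/nc 2 and wild-type 1 and 4.36, 4.92, 3.60 and 3.61 on the low side. Nid1, a basement membrane linker, read 7.11, 7.48 and 7.23 against 2.37, 2.74, 3.33 and 3.01, and the collagen chaperone Serpinh1 read 7.85 to 7.96 against 4.31 to 5.03. The caveolar gene Cavin2 differed by 4.19, the scaffold gene Akap12 by 3.95 and Clec14a, an endothelial lectin, by 3.93. All of these were chosen for their gap, so their separation of the sides follows from the choice.

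From the 110 genes a few more were chosen after their values were seen. Kitl, the ligand of the c-Kit receptor, read 4.94, 4.54 and 4.09 in the high-Lyve1 arrays against 2.00, 2.18, 2.10 and 2.00 in the low-Lyve1 arrays, while the mRNA of its receptor Kit ran the opposite way. Ets1, a transcription factor of endothelium and lymphocytes, read 7.21, 7.88 and 7.60 against 4.71 to 5.48. The metallothionein gene Mt1 read 8.46, 9.02 and 8.55 against 5.54 to 6.72. Kitl stayed of modest brightness even on the high side, whereas Mt1 was measurable on both sides. The other probe sets of Kitl and Mt1, none above log2 3.54 on any array, overlapped between the sides. The separation of Kitl and that of Mt1 thus each rest on a single probe set.

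Hepatocyte transcripts stood out for a few genes. In the hepatoblast and hepatocyte list 9 of 28 measured genes were separated upward (32.1%, against 5.55% of all genes), 2 by at least 1. Downward, 1 was separated (3.57%, against 4.87%), and the median difference was 0.27. Of the 28 genes, 22 stayed under log2 5 on every array. Fga, Fgb, Fgg and Ambp, which count as separated upward, lay under the array medians on all 7 arrays. Afp, the alpha-fetoprotein of hepatoblasts, read 7.91, 8.84 and 6.58 on the high side and 4.76, 4.32, 3.05 and 4.50 on the low side. Alb and Afp had the same order over the high arrays, with TFIIA nc/nc 2 first and wild-type 1 last. Apoa2, an apolipoprotein, read 4.28, 5.65 and 5.05 against 3.04 to 3.69, and Rbp4, the retinol carrier, 3.62, 5.13 and 3.40 against 2.34 to 2.68. The hepatic transcription factor genes Hnf4a, at 6.05 to 6.22 against 5.70 to 6.10, and Prox1, at 1.49 to 1.96 against 1.55 to 1.94, overlapped between the sides.

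Imprinted growth genes were separated upward in 5 of 16 (31.25%, against 5.55% of all genes) and downward in 1 (6.25%, against 4.87%). After Mest, the widest gap was that of Plagl1, a zinc finger transcription factor that regulates other imprinted genes, at 8.92, 9.27 and 8.78 against 6.44, 6.55, 6.71 and 6.99. Igf2, the fetal growth factor, overlapped, at 7.18 to 7.91 against 6.63 to 7.34. Ndn ran the other way, at 7.69 to 7.82 against 8.08 to 8.47, and Dlk1, a hepatoblast surface gene, overlapped at 4.14 to 5.26 against 4.49 to 5.84. The list therefore did not move as a block.

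Markers of the other cells of the fetal liver were checked in the same way. Over all genes, 5.55% were separated upward and 4.87% downward. Of 23 stellate and mesenchymal genes 2 were separated upward (8.7%) and 1 downward (4.35%), near those shares, and Sparc was the one with a gap of at least 1. The fibroblast genes Col1a1 and Pdgfra, at 2.14 to 2.94 and 1.58 to 2.48 over the 7 arrays, were dim on both sides. Others of the list were above the array medians on single arrays of either side, such as Dcn, a matrix proteoglycan, at 5.32 in TFIIA nc/nc 2 and 4.13 in wild-type 2, and Col1a2, a collagen chain, at 5.29 in wild-type 2. Among 23 macrophage genes 2 were separated in each direction (8.7%), and the mean of the list overlapped, at 3.79, 4.42 and 4.03 on the high side and 4.86, 4.40, 3.36 and 3.73 on the low side. Genes that define fetal liver macrophages did not follow Lyve1. Cd5l, a secreted scavenger protein of macrophages, read 3.82, 5.49 and 4.78 against 6.87, 5.88, 2.88 and 3.77, highest in TFIIA nc/nc 3. Adgre1, which codes for the F4/80 antigen, read 3.11 to 4.31 against 3.09 to 4.69, and the Kupffer cell genes Vsig4, Clec4f and Cd163 lay under the array medians on all 7 arrays. Vcam1, an adhesion molecule that endothelium also makes, read 5.17 to 5.64 on the high side and 5.14 in TFIIA nc/nc 3, but 3.18, 2.64 and 2.07 in wild-type 2, 3 and 4.

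The megakaryocyte and platelet list had 4 of 14 genes separated upward (28.6%, against 5.55% of all genes) and 1 downward (7.14%, against 4.87%). Clec1b, a podoplanin receptor of platelets that sinusoidal endothelium can also make, read 6.12, 6.30 and 6.39 against 4.92 in TFIIA nc/nc 3 and 2.81, 2.37 and 2.51 in wild-type 2, 3 and 4, whereas the platelet chemokine gene Pf4 overlapped at 6.06 to 6.97 against 5.25 to 6.55. Erythroid genes were separated upward in 4 of 18 (22.2%), of which Ermap, a red cell adhesion gene, had the largest gap, 0.95. Granulocyte and monocyte genes counted 0 of 16 upward and 1 downward, mast cell and basophil genes 0 of 9 in either direction and lymphoid genes 2 of 18 each way (11.1%). Apart from the endothelial lists, the share of genes with a gap of at least 1 was highest in the imprinted and lipid uptake lists, at 12.5% and 11.8%, against 0.888% of all genes.

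**Figure D3:**
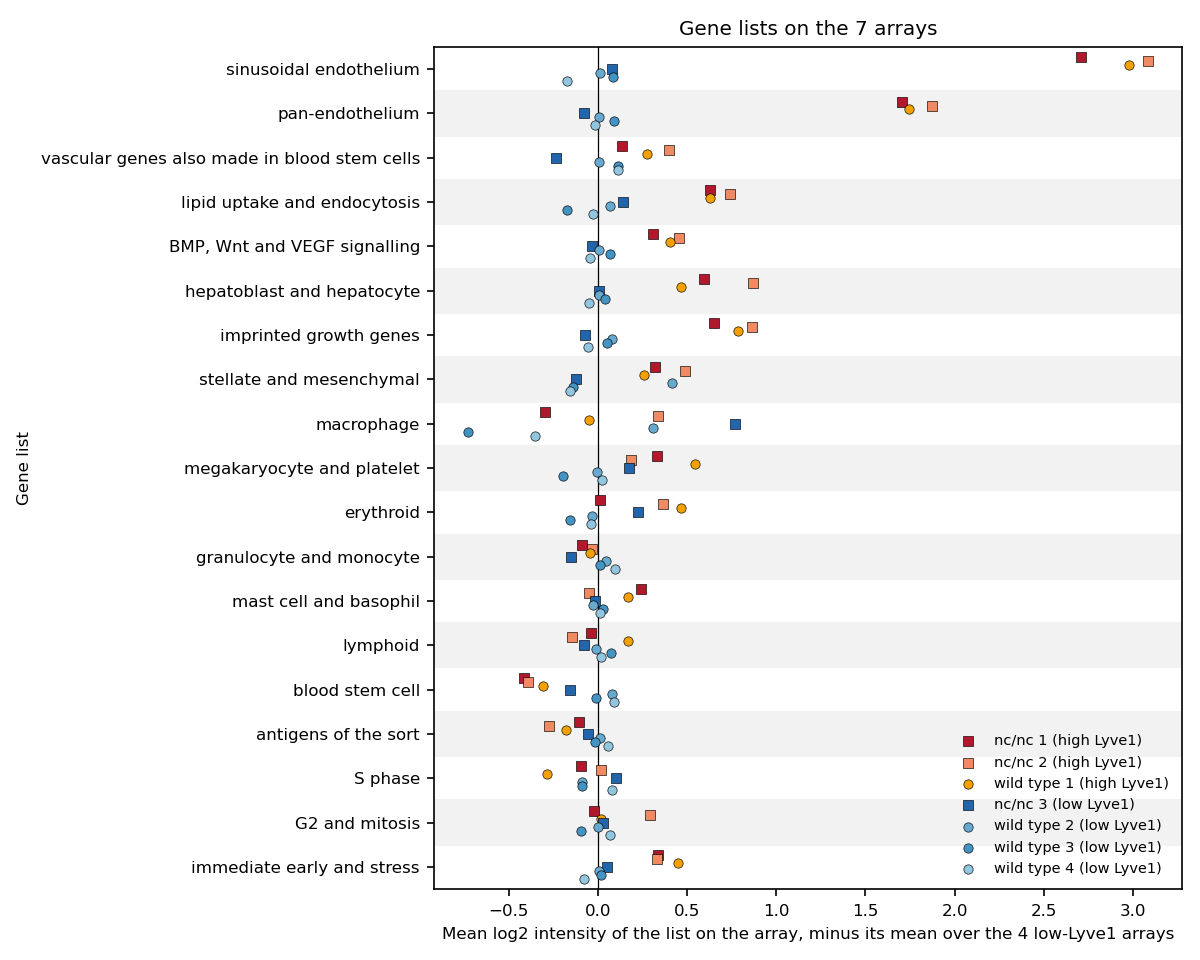
Mean log2 intensity of each gene list on each array, minus the mean of that list over the 4 low-Lyve1 arrays, with a point for each array. The endothelial lists stand farthest to the right on the 3 high-Lyve1 arrays (sinusoidal levels 5.93 to 6.31 against 3.05 to 3.31), the macrophage list overlaps (3.79 to 4.42 against 3.36 to 4.86) and the blood stem cell list lies to the left (6.71 to 6.81 against 6.97 to 7.21).

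Genes of the sorted stem cell itself were lower in the high-Lyve1 arrays by small amounts. Of 29 measured blood stem cell genes, 11 were separated downward (37.9%) and 0 upward, against 4.87% and 5.55% of all genes, and 26 of 29 differences were below 0, with a median of -0.33 and a range of -0.99 to 0.39. The mean of the list was 6.71, 6.73 and 6.81 in TFIIA nc/nc 1, TFIIA nc/nc 2 and wild-type 1 and 6.97, 7.20, 7.11 and 7.21 in TFIIA nc/nc 3 and wild-type 2, 3 and 4. A median of this size is a fold of 1.26. Among the 22 members with a mean level of at least log2 5, 11 were separated downward and the median was -0.45. The sinusoidal list without Lyve1 lay the other way on the same arrays, with means of 5.72, 6.10 and 5.99 against 3.30, 3.26, 3.29 and 3.07, and its part in the lower stem cell values was not tested.

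Gfi1, a repressor that restrains stem cell division, differed most, at 5.75, 6.17 and 6.35 on the high side and 6.73, 7.33, 7.23 and 7.04 on the low side. Cd27, a receptor present on early stem and progenitor cells, read 5.96, 6.16 and 6.22 against 6.44, 6.99, 7.43 and 7.15. Mllt3, a regulator of stem cell maintenance, read 5.76 to 6.13 against 6.33 to 7.07. In all 3 genes the lowest of the low-Lyve1 arrays was TFIIA nc/nc 3, which was also lowest of the low side for 16 of the 29 genes.

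Ptprc, the common leukocyte antigen CD45, read 9.08, 9.13 and 8.98 against 9.51, 9.61, 9.41 and 9.80. Myb, a transcription factor required for definitive blood formation, read 10.25, 10.30 and 10.48 against 10.69 to 10.89, and Hoxa9, a stem and progenitor homeobox gene, 8.74 to 8.82 against 9.04 to 9.43. These bright genes were tight on both sides, so even differences of -0.40 to -0.52 left no overlap. Hlf, a circadian-type transcription factor of stem cells, differed by -0.61 and was separated as well.

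Among the antigens of the sort, 2 of 6 measured genes, Kit and Ptprc, were separated downward (33.3%, against 4.87% of all genes). Kit, the receptor c-Kit, read 7.50, 8.08 and 7.61 on the high side and 8.18, 8.31, 8.66 and 9.06 on the low side. Slamf1, which codes for CD150, overlapped at 6.22 to 6.51 against 6.12 to 6.92. The Sca-1 gene Ly6a was not analysed here.

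**Figure D4:**
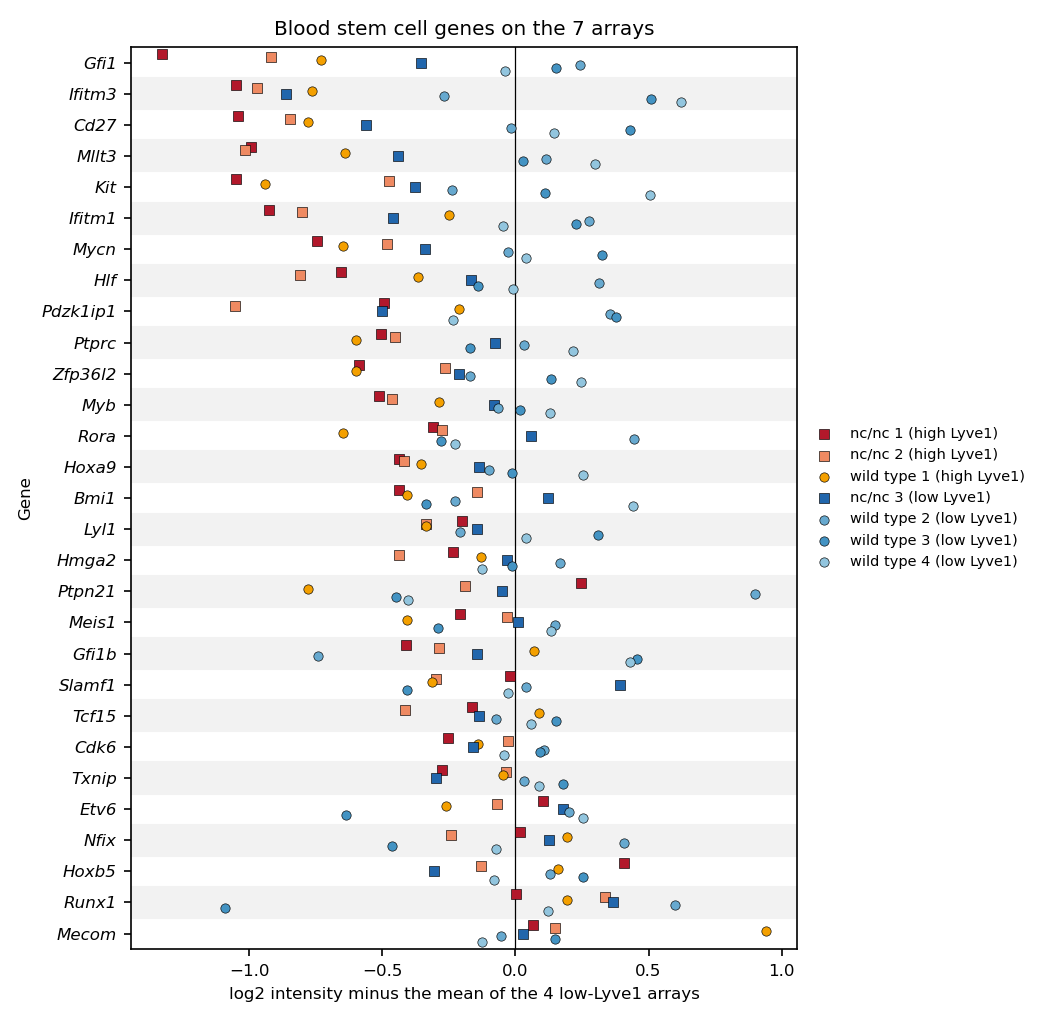
Log2 intensity of blood stem cell genes on each array, minus the mean of the gene over the 4 low-Lyve1 arrays, with a point for each array. Most genes lie to the left of 0 on the 3 high-Lyve1 arrays, such as Gfi1 (5.75 to 6.35 against 6.73 to 7.33) and Kit (7.50 to 8.08 against 8.18 to 9.06).

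The 20 widest downward gaps over all genes, each under 1, belonged to genes of varied roles, of which a few are described here. Cd300a, an inhibitory receptor of myeloid cells, had the widest, 0.68, at 3.88, 3.80 and 3.81 against 5.09, 4.66, 4.58 and 4.57. Cd68, a lysosomal protein of macrophages, read 2.30, 3.57 and 3.58 against 4.64, 4.34, 4.07 and 4.14. Cebpb, a myeloid transcription factor, read 5.17 to 5.74 against 6.18 to 7.03. The lack of overlap in these ranges follows from the choice of genes by their gap.

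Cd24a, a surface antigen of immature blood cells, read 9.94, 9.95 and 9.88 against 10.39, 10.40, 10.42 and 10.63, a bright and narrow separation. The interferon-induced gene Epsti1 read 5.55 to 5.94 against 6.53 to 6.97. From the lymphoid list, the chromatin organiser Satb1 was separated downward by a gap of 0.16, at 5.94 to 6.19 against 6.35 to 7.42. Cd79b, a subunit of the B cell receptor, was separated downward by 0.22, at 5.83 to 6.14 against 6.36 to 6.76. Of the 18 lymphoid genes measured, 2 were separated in each direction, and the median difference of the list was 0.11. The upward ones were Thy1, at 3.94 to 4.17 against 3.57 to 3.72, and Ly6d, at 2.52 to 2.97 against 2.25 to 2.49.

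Cell cycle genes were separated in small numbers. Of 22 S phase genes 1 was separated upward (4.55%, near the 5.55% of all genes), Fen1, a DNA flap nuclease, at 9.53 to 10.02 against 9.05 to 9.43. Of 21 genes of G2 and mitosis 3 were separated upward (14.3%), none by at least 1, and the proliferation antigen Mki67 was separated by a gap of 0.01. No member of either list was separated downward. Immediate early and stress genes, which cell handling can induce, were separated upward in 6 of 20 (30%, against 5.55% of all genes) and downward in 0 (against 4.87%). Klf2, a shear stress factor of endothelium, read 4.39, 4.62 and 5.07 against 2.99 to 3.49, Dusp1, a phosphatase induced by stress, 6.83 to 7.12 against 5.40 to 6.01, and Egr1, a growth factor response gene, 5.65 to 5.90 against 3.44 to 5.08. The part of cell handling in these values was not tested.

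Within the high side the 3 sorts were not equally bright. Averaged over the 110 genes, TFIIA nc/nc 2 read 6.37, wild-type 1 read 6.23 and TFIIA nc/nc 1 read 6.09, against 3.52 in TFIIA nc/nc 3 and 3.49, 3.32 and 3.30 in wild-type 2, 3 and 4. TFIIA nc/nc 2 was the highest of the 3 for 53 of the genes, wild-type 1 for 41 and TFIIA nc/nc 1 for 16, while TFIIA nc/nc 1 was the lowest for 57. The range over the high arrays had a median of 0.52 per gene. Wild-type 1 was the lowest of the 3 for Alb, Afp and some endothelial genes such as Oit3, Aplnr and Nrp1, and the highest for others such as Fabp4 and Cd36.

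The sides were also apart on the main axis of variation over all genes. The first principal component held 43.4% of the variance, with scores of 25.6, 20.2 and 32.0 on the high side and -12.1, -12.2, -26.7 and -26.8 on the low side. Pairwise correlations over all genes, with 1 probe set per gene, were 0.984 to 0.989 within the high side. They were 0.980 to 0.992 within the low side and 0.965 to 0.984 between the sides, so these ranges overlapped. The signal at the 3' end of actin minus that at the 5' end, which falls as RNA and amplification quality rise, was 2.95, 2.15 and 2.92 on the high side and 2.99, 2.62, 1.93 and 2.12 on the low side, and overlapped. The number of embryos per sort was 1 or 2 on the high side and 1 to 4 on the low side, so it was no larger than 2 in any high-Lyve1 sort, and its part was not tested. Xist, which marks female cells in the pool, was 11.4, 11.03 and 4.49 on the high side. On the low side it was 9.76, 4.47, 10.7 and 10.1, so an array of low Xist stood on each side. The low arrays were wild-type 1 and 2, whereas Xist was high in wild-type 3 and 4 and in every TFIIA nc/nc array. Xist was thus uneven between the genotypes, and the genotype comparison described below held no term for sex.

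The genotypes, which the labels give and the sorting of arrays did not use, were compared with limma over all 12393 genes with the side of the array as a term, 3 TFIIA nc/nc against 4 wild-type arrays. Of the genes, 1 passed a Benjamini-Hochberg adjusted p of 0.05 (0.00807% of genes), and 611 had an unadjusted p under 0.05 (4.93%), 288 higher and 323 lower in TFIIA nc/nc. The gene that passed was Galc, the lysosomal enzyme that degrades galactosylceramide. It read 2.31, 2.28 and 1.88 in TFIIA nc/nc 1, 2 and 3 and 5.74, 5.76, 5.31 and 5.96 in wild-type 1, 2, 3 and 4. It was low in all 3 TFIIA nc/nc arrays on either side, with no overlap between genotypes. Its difference was -3.63 (SE 0.21, limma adjusted p = 8.15e-05), and it was -3.44 within the high-Lyve1 arrays and -3.80 within the low-Lyve1 arrays. A filter for genes at log2 6 or more on at least 3 arrays left Galc out and gave 0 calls, and over the high-Lyve1 arrays alone its limma adjusted p was 0.055. The count was 3 without wild-type 1, which added Clec1b and Hbb-y, and 2 without wild-type 3, which added Gm6958.

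The targeted gene Gtf2a1 read 5.17, 6.16 and 5.92 in TFIIA nc/nc 1, 2 and 3 and 3.61, 5.27, 3.86 and 5.69 in the 4 wild-type arrays, which overlapped. The nc alleles change the protein's cut site, which a 3' expression array does not read, so this level does not check the genotype labels. The next genes by p were Rbmx2, Gm6958, Gnai1 and Plac8, with differences of 1.03, -1.45, 1.20 and -1.03 and a limma adjusted p of 0.38 for each.

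None of the 19 gene lists held a member past the adjusted threshold. Without the side term, the 110 genes with an upward gap of at least 1 had a median difference of 1.21 between TFIIA nc/nc and wild type and a median standard error of 0.78, and with it 0.07 and 0.23. The 110 genes were chosen for their difference between the sides, so this shift follows from the choice and is given as a description. Over all genes the median standard error was 0.185 without the term and 0.196 with it. Of the TFIIA nc/nc arrays 2 of 3, and of the wild-type arrays 1 of 4, lie on the high side.

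In the endothelial lists, 0 of 18 sinusoidal genes and 1 of 27 pan-endothelial genes had an unadjusted p under 0.05 for genotype. The 18 include Lyve1, whose own level set the side used as a term in that fit. The macrophage list had 7 of 23, 5 of them higher in TFIIA nc/nc, with a median difference of 0.54. On the high side the mean of this list was 3.79 and 4.42 in TFIIA nc/nc 1 and 2 against 4.03 in wild-type 1. On the low side it was 4.86 in the lone TFIIA nc/nc 3 against 4.40, 3.36 and 3.73 in wild-type 2, 3 and 4. The list means of the genotypes thus overlapped. The blood stem cell list had 6 of 29, all 6 lower in TFIIA nc/nc, with a median of -0.15, against 4.93% of all genes. None of these members passed the adjustment over all genes in limma.

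Across genes, the genotype difference within the high-Lyve1 arrays and that within the low-Lyve1 arrays were weakly related, with a Pearson correlation of 0.098 and a Spearman correlation of 0.10 over 12393 genes, which are not independent replicates. Each within-side difference has a lone array on one arm, wild-type 1 on the high side and TFIIA nc/nc 3 on the low side. Hbb-y, an embryonic globin gene, shows this: its difference was -1.82 on the high side and 4.65 on the low side, where TFIIA nc/nc 3 alone read 7.93 and the other 6 arrays 2.46 to 4.63.

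**Figure D5:**
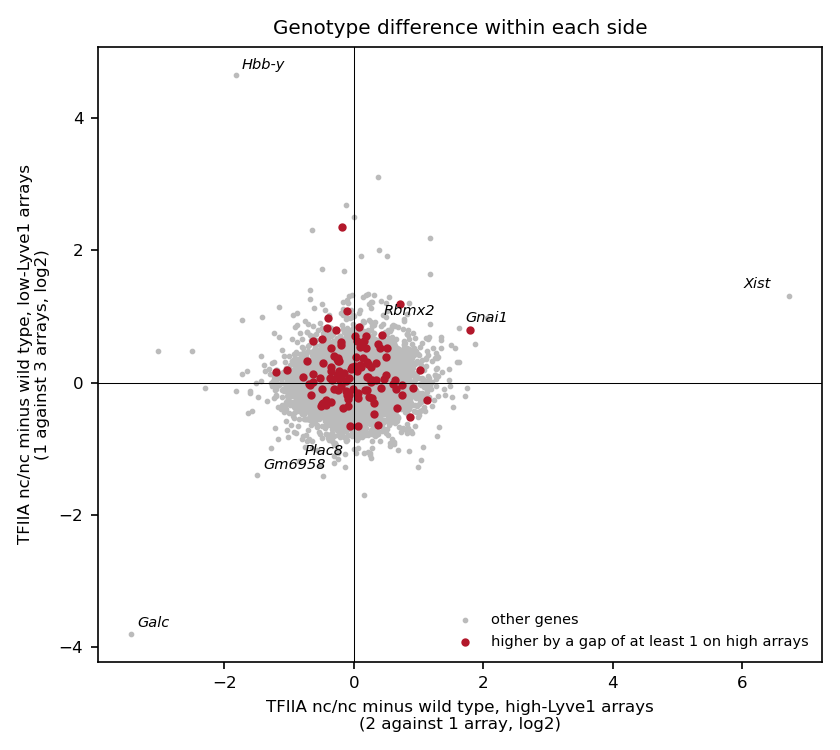
Genotype difference (TFIIA nc/nc minus wild type, log2) within the low-Lyve1 arrays against that within the high-Lyve1 arrays, with a point for each gene. Galc lies low on both axes, at -3.44 and -3.80, while Hbb-y and Xist differ in sign or size between the sides, each of which has a single array on one arm.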

How the data were processed

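RNA of 7 sorts was measured on 1 Affymetrix mouse array each. The authors deposited linear RMA intensity values from Affymetrix Expression Console, according to the submitters' processing notes. The program's version is not given in the sources used here, and scan dates and detection calls were not used, so batches were not tested. RMA corrects background, equalises the arrays and summarises probes, and it compresses the differences of dim genes. Log2 was taken with no pseudocount. Of 22690 probe sets, 64 controls were left out. The platform annotation, brought up to date through a RefSeq table (GRCm38.p6) that 12369 of 12393 genes matched, gave a single symbol for 20380 probe sets, several for 691 and none for 1555. Each gene was read from its probe set of highest mean over the 7 arrays.

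The arrays were split at log2 6 of Lyve1 and described with no test. The genotypes were fitted with lmFit and eBayes in limma 3.58.1 (R 4.3.3), with the side as a term, 2-sided p-values and Benjamini-Hochberg adjustment over all genes. The fit was tested on simulated data. Samples are biological replicates per the labels, and their number limits the precision. Genes named were the 8 markers, the 30 widest gaps upward and 20 downward, up to 5 per list of 19 lists (358 of 391 genes measured), Gtf2a1, Xist and the top of the genotype fit, and any others were picked with their values in view. The markers, lists and split were chosen with earlier results of these data known. Alternatives covered the normalization, probe set choice, a filter on dim genes, the gap, the sorting gene, covariates, the replicate block and leaving out each array. Figures used matplotlib 3.10.9 (Python 3.11.15).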

Additional observations from a re-analysis of the deposited data

Results flagged for a closer look

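Within the 4 wild-type arrays, wild-type 1 lay above the other 3 by a gap that passes Dixon's critical ratio in 11 of 33 measures looked at. Wild-type 1 is the one wild-type array on the high-Lyve1 side, so these gaps restate the split for Lyve1 and for genes that go with it, and they are a description and no test. It read 9.73 for Lyve1, 6.96 for Oit3, 6.65 for Gpr182, 7.26 for Bmp2, 8.51 for Fabp4, 7.94 for Ehd3 and 8.97 for Mest. In list means it read 6.20 for sinusoidal endothelium, 5.72 for pan-endothelium, 3.07 for hepatoblast and hepatocyte genes and 6.24 for imprinted growth genes. In groups drawn at random the ratio is passed in about 1 in 20. That rate is no yardstick for the 11 of 33. Lyve1 itself had set wild-type 1 apart, and the measures were chosen with earlier results known.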

How the results depend on the processing

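The count of 110 genes higher in the high-Lyve1 arrays was 85 to 115 under other normalizations and probe set choices. When each array was left out it was 114 to 143. Leaving out an array can only keep or widen a gap, so counts in either direction could not fall there. The count of higher genes was 58 among genes at log2 6 or more on at least 3 arrays. It was 46 at a gap of at least 2, 187 at 0.5 and 688 at any gap. The count of 0 lower genes was 7 at a gap of at least 0.5, 604 at any gap, and 0 to 1 when each array was left out, with the 1 arising without wild-type 3. The gap of 0.5 and the alternatives for list medians were added after seeing the data. The median of the vascular genes shared with stem cells turned to -0.0393 with arrays centred on their medians, and that of the sort antigens from -0.0676 to 0.0361 with the mean of all probe sets, the cause of which was not tested. Of 128 named differences, 30 moved by more than their spread with the mean of all probe sets, 11 with the most variable probe set and 1 with quantile normalization.

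The genotype count of 1 in limma became 0 with the filter on dim genes, which leaves out Galc (230 genes at an unadjusted p under 0.05), and 2 over the low-Lyve1 arrays alone, Galc and Hbb-y. It was 1 to 3 when each array was left out, with Gm6958 at -1.59 and an adjusted p of 0.028 without wild-type 3. Over the high-Lyve1 arrays alone the single call was Xist. A lone array on an arm is there assumed to vary like the others. With the replicate number as a block and the side as a term, over replicates 1 to 3, the count was 1 (678 unadjusted), as without the block on those arrays (845 unadjusted). Deviations of same-numbered arrays from their genotype means correlated at 0.38, -0.19 and 0.11 for replicates 1, 2 and 3. The side was left in these deviations. The replicate 1 arrays are both high-Lyve1, the replicate 2 arrays stand on opposite sides and the replicate 3 arrays are both low-Lyve1. The correlations therefore cannot show whether same-numbered arrays are paired. Dim signal limits the size of differences for the 74 genes whose low-side mean lay under the array medians.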
